A study of Mus musculus with 6 samples.

Results

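Integrins are cell surface receptors for the extracellular matrix, each made of an alpha chain and a beta chain. In lung, the chains Itgb1, Itgb4, Itgb5 and Itgb6 (beta) and Itgav, Itga3, Itga5, Itga6 and Itga8 (alpha) were followed in E18.5 mouse fetuses that lacked insulin-like growth factor 1 (IGF1) and in normal controls. The chains were the 9 genes named here, and their members were all probe-sets that the array annotation assigned to exactly 1 of these symbols. This gave 24 probe-sets of 9 genes, out of 12393 single-symbol genes and 22626 mouse probe-sets tested.

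The array data came from whole lungs at embryonic day 18.5. The Igf1-/- group held 3 samples of fetuses homozygous for a null Igf1 allele, and the Igf1+/+ group held 3 samples of wild type fetuses. Fetuses of both groups came from matings of heterozygous parents kept on the inbred C57BL/6J background, no agent was given, and the null allele was present in every cell of the body and not in lung alone. By the study's methods, pups of this age were delivered by caesarean section and assisted to breathe for a short time in the warm before the lungs were taken. A difference in breathing between the genotypes and the genotype itself cannot be told apart on these arrays. The labels speak of pooled lungs and the study's methods of separate samples. A lung named below with its value is therefore 1 sample on 1 array and may not be 1 animal. Each sample was measured on 1 Affymetrix oligonucleotide array, and the values were log2 RMA signals (RMA is a method of background correction, normalization and summary of probe intensities).

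In the Igf1-/- lungs Itgb6 was the only one of the 9 chains with a probe-set that passed the test. Its brighter probe-set was 1.97-fold lower in the mutants, and its dimmer probe-set was 1.75-fold lower without passing. Itgav, the chain that pairs with Itgb6, differed by -0.09 on the log2 scale at its brightest probe-set. No probe-set of the other beta chains passed the test, and neither did any probe-set of the alpha chains. A probe-set was called changed at an adjusted p under 0.10, from limma with Benjamini-Hochberg adjustment over all 22626 probe-sets.

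The integrin chains pair in a fixed set of ways. Itgb1 joins many alpha chains, among them Itga3, Itga5, Itga6, Itga8 and Itgav, and so takes part in binding laminins, fibronectin and nephronectin. Itgb4 pairs with Itga6 in the hemidesmosomes that anchor epithelium to its basement membrane. Itgb5 and Itgb6 pair with Itgav, and the Itgav and Itgb6 dimer is found on epithelial cells, where it binds latent transforming growth factor beta (TGF-beta) and helps to release the active factor. In bulk lung, fewer cells of a type and less RNA per cell cannot be told apart.

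The arrays were alike in scale. Their medians lay between 6.85 and 6.89, the correlations between arrays over all probe-sets between 0.992 and 0.996, and single values between 3.10 and 14.6. Alveolar type II markers such as the surfactant proteins had a mean level of 12.6 to 12.9 over the 6 arrays. The array of Igf1-/- replicate 3 stood apart in heart muscle genes. The mean level of the 5 heart markers was 10.17 there and 8.41 to 8.63 on the other 5 arrays, and the atrial hormone gene Nppa read 7.29 against 4.21 to 4.44. Where this array decided a call, the result is also given without it, and so are several differences that it made larger. Igf1 itself was lower in the mutants by 0.58, 0.51 and 0.42 on the log2 scale at its 3 probe-sets, and none passed the test (adjusted p = 0.152, 0.267 and 0.327). No source names where these probes lie relative to the disrupted part of Igf1, and the signal left in the mutants therefore does not check the genotype.

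Itgb6 encodes the epithelial beta chain that pairs only with Itgav. At its brighter probe-set, 1422983_at, the Igf1-/- lungs read 8.25, 7.86 and 7.64 (replicates 1 to 3) and the Igf1+/+ lungs 9.08, 9.07 and 8.55. Every mutant lung was below every control lung. The mean was 7.92 ± 0.31 (SD, n = 3) in Igf1-/- and 8.90 ± 0.30 (SD, n = 3) in Igf1+/+. The log2 fold change was -0.98 (SE 0.18, 95% confidence interval -1.39 to -0.57), with an adjusted p of 0.0896 in limma.

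The dimmer Itgb6 probe-set, 1432281_a_at, read 6.95, 6.59 and 6.16 in Igf1-/- and 7.46, 7.26 and 7.41 in Igf1+/+ lungs. The groups again did not overlap, and the order of the 3 mutant lungs was the same at both probe-sets. The difference was -0.81 on the log2 scale (SE 0.17, 95% confidence interval -1.20 to -0.42), just short of the threshold (limma, adjusted p = 0.117). When both probe-sets were averaged and 12393 genes were tested in place of probe-sets, the change of Itgb6 was -0.90 (limma, adjusted p = 0.0521). Itgb6 was among the genes that the study itself drew attention to from these same arrays, so its position here is not independent evidence of its direction. The study also reported quantitative RT-PCR on other lung samples for part of its genes and listed primers for Itgb6. By its account, every gene so tested moved in the same direction as on the arrays.

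Itgb6 read lowest in Igf1-/- replicate 3, the array with the high heart gene signal. Without that array the brighter probe-set differed by -0.84 and the dimmer one by -0.61, and neither passed the test (limma, adjusted p = 0.262 and 0.250). The call at the brighter probe-set was also lost without Igf1-/- replicate 2 (adjusted p = 0.228), without Igf1+/+ replicate 1 (0.276) and without Igf1+/+ replicate 2 (0.211).

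**Figure D1:**
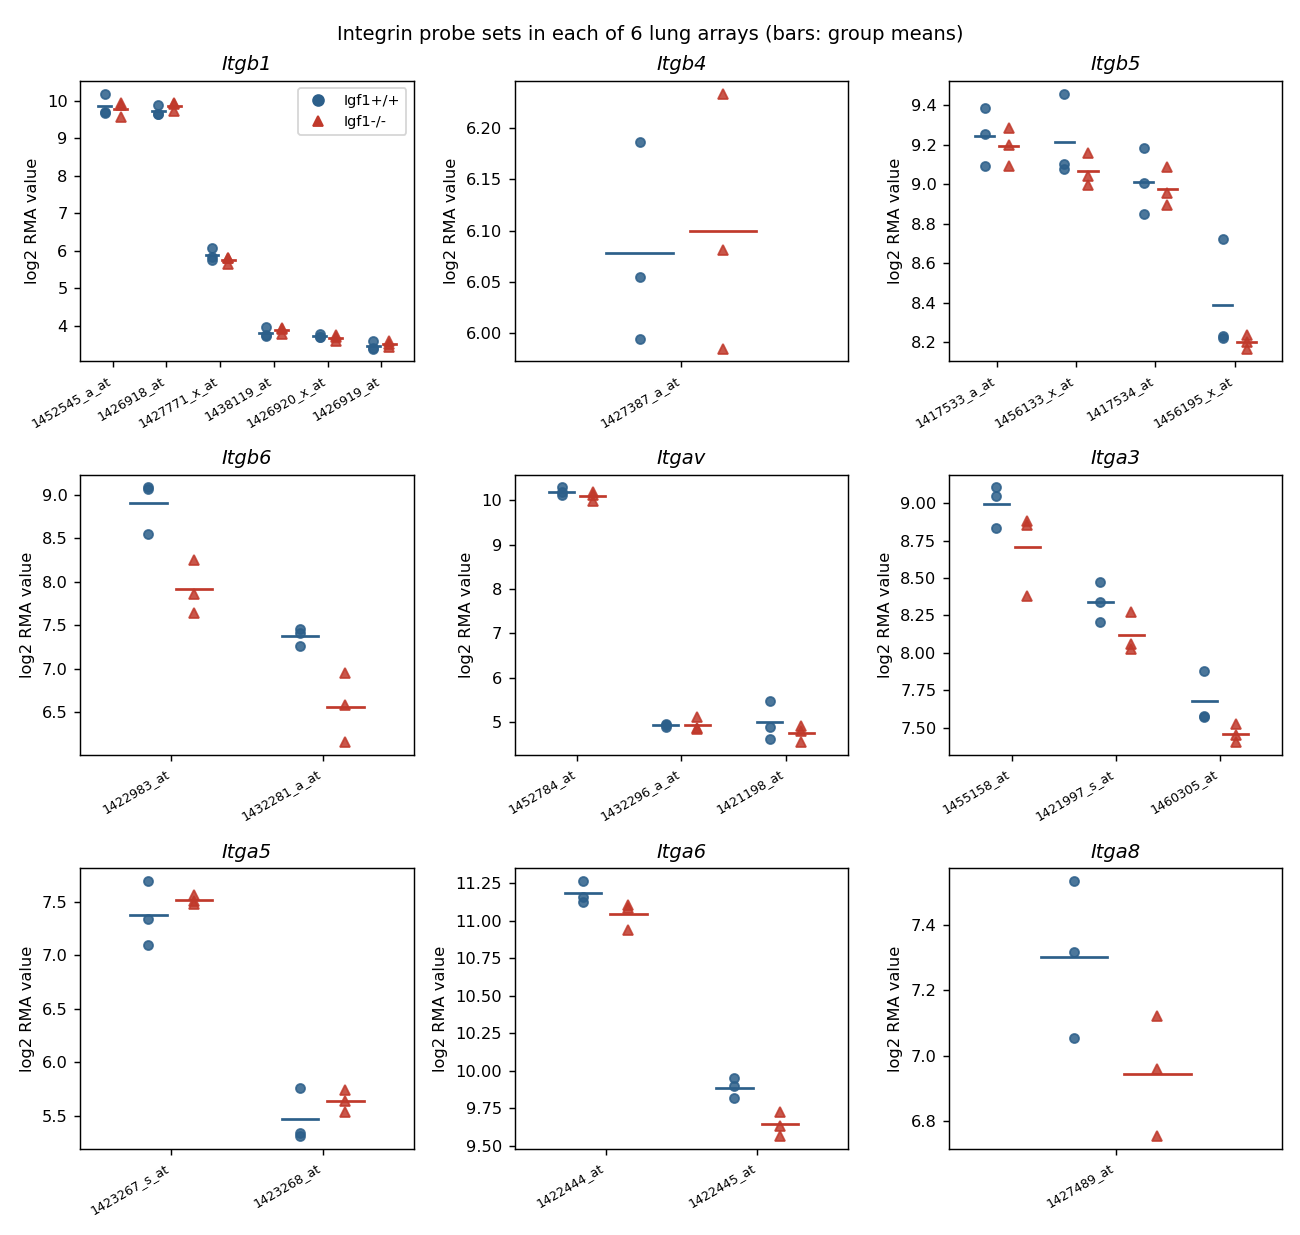
Log2 RMA values of the 24 integrin probe-sets on each of the 6 lung arrays, one panel per gene, each with its own vertical scale. Circles are Igf1+/+ and triangles Igf1-/- lungs (n = 3 each) and bars are group means. At both Itgb6 probe-sets all 3 triangles lie under all 3 circles, while at Itgb1, Itgb4, Itgb5, Itgav and Itga5 the symbols overlap at every probe-set.

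The 250 bases before the start of the Itgb6 transcript and of the transcript of its partner Itgav are shown because these genes form 1 receptor while only the first passed the test. They are RefSeq sequences of GRCm38.p6, printed 5′ to 3′ on the strand of the gene, and capitals mark each CG dinucleotide. The Itgb6 stretch is chr2:60722604-60722853 (minus strand) and the Itgav stretch is chr2:83724147-83724396 (plus strand).
Itgb6: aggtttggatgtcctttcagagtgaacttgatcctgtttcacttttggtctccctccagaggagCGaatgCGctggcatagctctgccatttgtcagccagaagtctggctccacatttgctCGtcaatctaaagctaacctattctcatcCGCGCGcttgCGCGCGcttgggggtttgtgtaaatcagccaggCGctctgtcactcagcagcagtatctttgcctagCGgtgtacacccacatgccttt
Itgav: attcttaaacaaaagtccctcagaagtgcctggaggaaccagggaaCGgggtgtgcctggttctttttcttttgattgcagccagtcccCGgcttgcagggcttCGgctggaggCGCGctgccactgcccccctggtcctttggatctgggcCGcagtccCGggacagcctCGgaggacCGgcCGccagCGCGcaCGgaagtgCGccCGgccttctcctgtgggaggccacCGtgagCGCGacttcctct
The Itgb6 stretch holds 11 CG dinucleotides and 52% G or C, and the Itgav stretch holds 18 and 64.4%. Across the first listed starts of the other 6 members with an entry the count ran from 11 (Itga5) to 22 (Itga3), and the median over all 32851 promoters of the table was 6. A second Itgb6 start in the table had 3. These counts describe the letters of the windows, and the arrays do not say which start was used.

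Itgb1, the common beta chain, had 6 probe-sets, and they did not point one way. At the brightest, 1452545_a_at, Igf1-/- lungs read 9.88, 9.94 and 9.57 and Igf1+/+ lungs 9.67, 9.72 and 10.19. The ranges overlapped, and the highest value was that of 1 control array. The log2 difference was -0.06 (95% confidence interval -0.41 to 0.28; limma, adjusted p = 0.888).

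The second bright Itgb1 probe-set, 1426918_at, read 9.92, 9.95 and 9.72 in Igf1-/- and 9.66, 9.66 and 9.89 in Igf1+/+ lungs, a difference of 0.12 (95% confidence interval -0.09 to 0.34). The remaining 4 differed by -0.14 to 0.07, with adjusted p from 0.609 to 0.830, and their values overlapped between genotypes. Of these, 3 had means near the bottom of all probe-sets (percentiles 0.919, 3.62 and 5.94). The sign of the difference at 1452545_a_at turned to 0.05 without Igf1-/- replicate 3 and to 0.10 without Igf1+/+ replicate 3.

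Itgb5, the beta chain of a vitronectin receptor, had 4 probe-sets with differences of -0.05, -0.15, -0.04 and -0.19. None passed the test (limma, adjusted p 0.578 to 0.910). At 1456195_x_at the Igf1-/- lungs read 8.17, 8.23 and 8.20 and the Igf1+/+ lungs 8.72, 8.23 and 8.22. A single control array, Igf1+/+ replicate 1, stood above the rest, and it was the highest control at all 4 Itgb5 probe-sets. Without that array the sign turned at 2 of the 4, to 0.02 at 1417533_a_at and 0.05 at 1417534_at.

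Itgb4, the hemidesmosome chain, had 1 probe-set, 1427387_a_at. It read 5.98, 6.23 and 6.08 in Igf1-/- and 6.19, 5.99 and 6.05 in Igf1+/+ lungs. The values were interleaved, with a difference of 0.02 (95% confidence interval -0.19 to 0.23; limma, adjusted p = 0.941). The interval leaves out a change as large as that of Itgb6, although this probe-set lay at the 39.7th percentile of all means, under the median signal.

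Among the alpha chains, Itgav was measured well at 1 of its 3 probe-sets. At 1452784_at the Igf1-/- lungs read 10.19, 10.13 and 9.98 and the Igf1+/+ lungs 10.29, 10.18 and 10.12. The ranges overlapped, and the difference of -0.09 had a 95% confidence interval of -0.29 to 0.10 (limma, adjusted p = 0.679) and was -0.03 without Igf1-/- replicate 3. The other Itgav probe-sets lay near the 25th percentile of all means and differed by 0.01 and -0.24. At 1421198_at, which gave the latter, Igf1+/+ replicate 3 read 5.47 and the other 5 arrays 4.54 to 4.91.

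Itga6, the laminin receptor chain shared by Itgb1 and Itgb4, was lower in every mutant lung than in every control lung at both of its probe-sets, without passing the test. At 1422445_at the Igf1-/- lungs read 9.63, 9.73 and 9.57 and the Igf1+/+ lungs 9.95, 9.82 and 9.90. The difference was -0.25 (SE 0.08, 95% confidence interval -0.42 to -0.07; limma, adjusted p = 0.260). At 1422444_at the values were 11.08, 11.11 and 10.94 against 11.13, 11.16 and 11.27, with a difference of -0.14 (limma, adjusted p = 0.501). Igf1-/- replicate 3 was the lowest array at both, and without it the differences were -0.21 and -0.09.

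Itga3, the other laminin receptor chain, differed by -0.29, -0.22 and -0.22 at its 3 probe-sets (limma, adjusted p 0.408 to 0.438). At the brightest, 1455158_at, Igf1-/- lungs read 8.85, 8.88 and 8.38 and Igf1+/+ lungs 9.05, 8.83 and 9.11. The lowest value was that of Igf1-/- replicate 3, without which the difference was -0.13, and the ranges overlapped. At 1460305_at alone the groups did not overlap, with 7.45, 7.52 and 7.40 in mutants and 7.57, 7.58 and 7.88 in controls.

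Itga8 pairs with Itgb1 as the receptor of nephronectin and is known from mesenchyme. Its probe-set 1427489_at read 6.96, 7.12 and 6.75 in Igf1-/- and 7.53, 7.06 and 7.32 in Igf1+/+ lungs. Igf1+/+ replicate 2 lay within the mutant range. The difference was -0.36 (SE 0.13, 95% confidence interval -0.66 to -0.05; limma, adjusted p = 0.336), and -0.26 without Igf1-/- replicate 3, the lowest array.

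Itga5, the fibronectin receptor chain that pairs with Itgb1, was the only member with both probe-sets at a higher mean in the mutants. At 1423267_s_at the Igf1-/- lungs read 7.48, 7.56 and 7.51 and the Igf1+/+ lungs 7.34, 7.09 and 7.69. The mutants lay inside the range of the controls, and the differences of 0.14 and 0.17 did not pass the test (limma, adjusted p = 0.692 and 0.607). Single control arrays set the size. At 1423267_s_at the difference was 0.00087 without Igf1+/+ replicate 2 and 0.30 without Igf1+/+ replicate 3, and at 1423268_at it ran from 0.09 without Igf1+/+ replicate 1 to 0.32 without replicate 3.

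**Figure D2:**
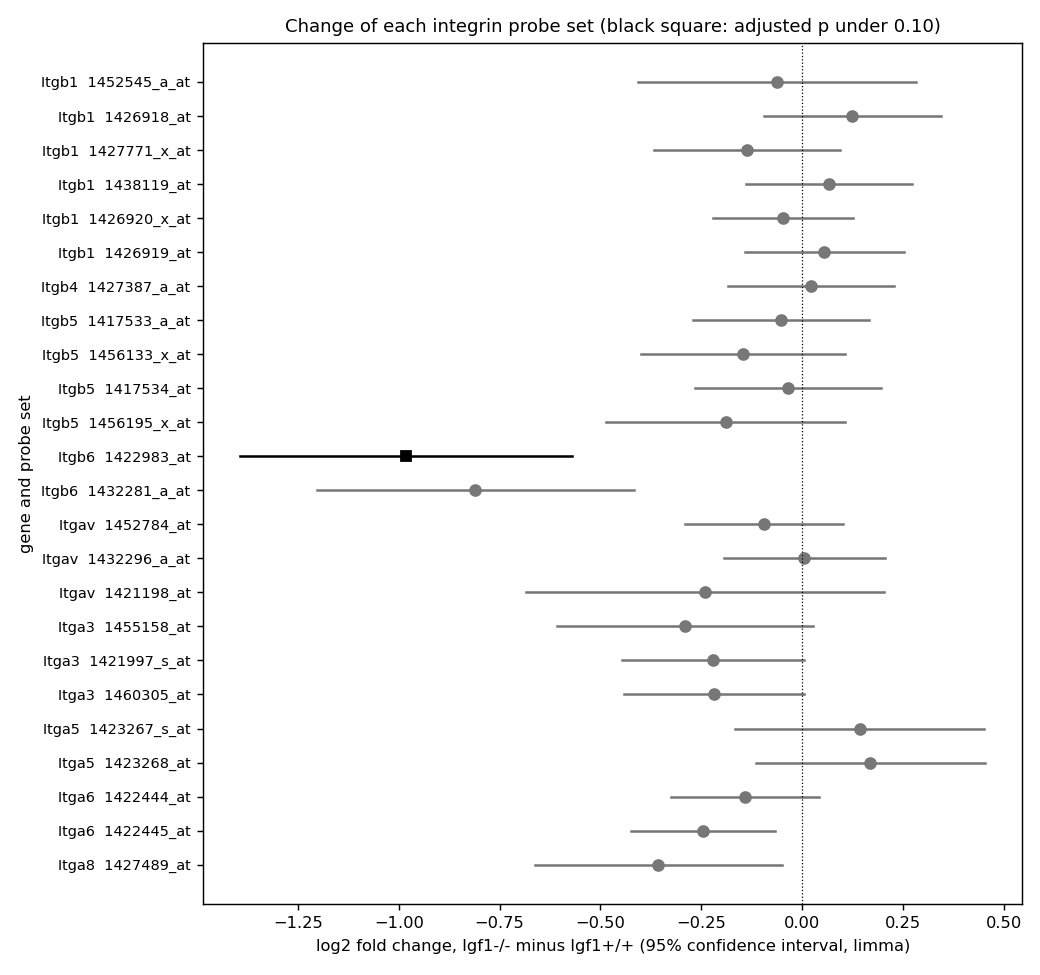
Log2 fold change, Igf1-/- minus Igf1+/+, of each integrin probe-set with its 95% confidence interval from limma (3 arrays against 3). The black square is the Itgb6 probe-set 1422983_at, at -0.98, the only one with an adjusted p under 0.10. Intervals of 4 probe-sets, those of Itgb6, one of Itga6 and that of Itga8, lie wholly below 0.

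Counted together, 1 of the 24 integrin probe-sets was called lower and 0 were called higher, where 0.393% of all probe-sets were called lower and 0.164% higher. By gene this was 1 of 9, and 0 of 9 without Igf1-/- replicate 3, where 0.573% of all genes had a probe-set called lower on the 6 arrays. At an unadjusted p under 0.05 there were 4 lower (both of Itgb6, and 1 each of Itga6 and Itga8) and 0 higher, with 6.28% of all probe-sets lower and 6.27% higher at that level. At an adjusted p under 0.20, the wider level of the study, the 2 of Itgb6 passed, with 2.6% of all probe-sets passing in either direction. The groups did not overlap at 5 integrin probe-sets, all lower in mutants (both of Itgb6, both of Itga6 and 1 of Itga3), with 7.26% of all probe-sets in that class. The difference was negative at 17 of the 24, or 70.8%, against 41.8% of all probe-sets. The median difference was -0.12 against 0.03 over all probe-sets. Both probe-sets changed by over 1.5-fold were those of Itgb6, with 0.875% of all probe-sets past that size.

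The change of Itgb6 was set against that of its partner and of the other beta chains within each array. For this, the mean of each gene's probe-sets was subtracted from the mean of the Itgb6 probe-sets on the same array. The size of such a difference depends on the probes and has no meaning by itself, and only its shift between genotypes was read. Itgb6 minus Itgav was 0.986, 0.514 and 0.445 in Igf1-/- and 1.58, 1.58 and 1.14 in Igf1+/+ lungs, a shift of -0.79. The groups did not overlap, with Igf1-/- replicate 1 nearest to the controls.

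The shifts against the other beta chains were -0.90 for Itgb1, -0.92 for Itgb4 and -0.79 for Itgb5. No mutant array overlapped with a control array in any of the 4 pairs. Without Igf1-/- replicate 3 the 4 shifts were -0.64 to -0.76. The subtracted means include dim probe-sets, which can show little fall. For Itgb1 these lay at percentiles 0.919, 3.62 and 5.94 of all means, for Itgav at 25.0 and 24.1. The only Itgb4 probe-set lay at 39.7. These shifts therefore largely restate the change of Itgb6 itself. The exact two-sided permutation test gave p = 0.1 in each of the 4 comparisons and 0.1 after adjustment over them, which is the smallest value that 3 arrays against 3 allow, so no shift could pass 0.05 by this test. Itgb6 was already known to be lower on these arrays, which the test does not take into account.

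**Figure D3:**
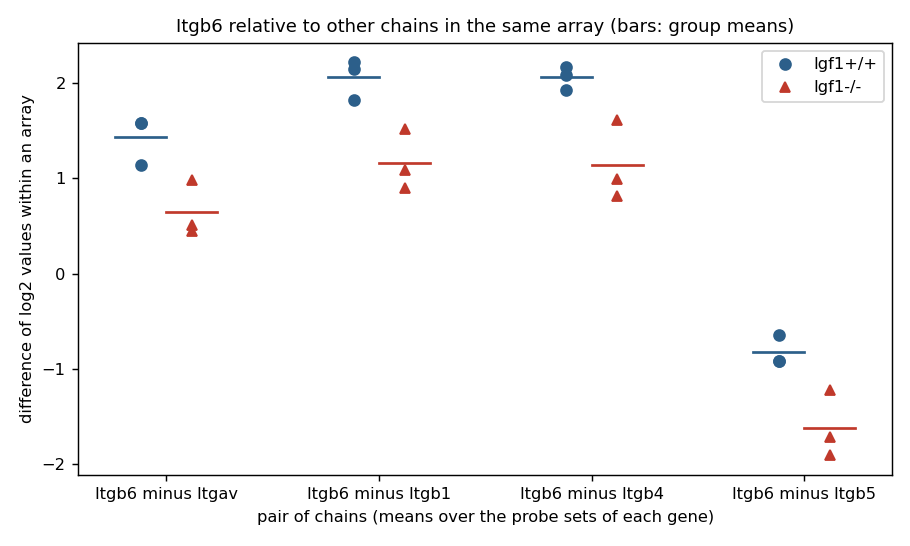
Difference of log2 values within an array, Itgb6 minus Itgb1, Itgb4, Itgb5 or Itgav, each gene as the mean of its probe-sets. Circles are Igf1+/+ and triangles Igf1-/- arrays, and bars are group means (n = 3). In all 4 pairs the 3 triangles lie below the 3 circles, by -0.79 to -0.92 between the group means.

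Within genotypes some chains varied together from array to array. Taken over the 6 arrays after removal of the genotype means, the brightest probe-sets correlated at 0.998 for Itgb5 and Itga8, 0.948 for Itgb1 and Itga6, 0.868 for Itgb6 and Itgav, and -0.30 for Itgb6 and Itgb1. The values for Itgb5 with Itga8 and for Itgb1 with Itga6 were the highest among all pairs of the 9 chains. With so few arrays, values this high can arise by chance among many pairs. These are descriptions of 6 arrays that share their normalization. Over the same arrays without removal of the means, the 5 other genes closest to Itgb6 were Cd2ap (r = 0.996), Agfg1 (0.994), Pawr (0.994), C1d (0.993) and Spon1 (0.991). They were picked for this from all single-symbol genes, so a lower mean in the mutants follows from the choice. With 6 arrays and so many genes, values of r this high can arise by chance. Spon1, which encodes a secreted matrix protein, read 9.18, 8.57 and 8.28 in Igf1-/- and 9.88, 9.91 and 9.27 in Igf1+/+ lungs, a difference of -1.01 that did not pass the test (limma, adjusted p = 0.149). Cd2ap, an adaptor protein of the actin cytoskeleton, differed by only -0.16 (adjusted p = 0.416), and the differences of the other 3 lay between -0.42 and -0.17.

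The integrin chains outside the 9 were also read. Of 13 other alpha chain genes 9 were on the array, with 13 probe-sets, and 0 passed the test (at an unadjusted p under 0.05, 1 lower and 3 higher). At that unadjusted level 6.28% of all probe-sets were lower and 6.27% higher. Itga9, the brightest, differed by 0.03 at its brightest probe-set (adjusted p = 0.909). Its dimmer probe-sets differed by -0.26 (1450029_s_at, the 1 lower at the unadjusted level; limma, adjusted p = 0.348) and -0.08, so they disagreed in sign with the brightest. Itga7, the laminin receptor chain of muscle, differed by -0.26 (adjusted p = 0.520). Itga7 read lowest on the array of Igf1-/- replicate 3 and differed by -0.13 without it. The platelet chain Itga2b, named after its values were seen, read 7.54, 7.64 and 7.57 in Igf1-/- and 7.25, 7.34 and 7.42 in Igf1+/+ lungs, a difference of 0.25 (limma, adjusted p = 0.252). The study listed Itga9 as lower and Itga2b as higher in the mutants from these same arrays, so their direction here is not independent evidence.

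Of 5 other beta chain genes 4 were on the array, each with 1 probe-set. All 4 had a higher mean in the mutants, by 0.03 to 0.23, and 0 passed the test at the adjusted or the unadjusted level. Of all probe-sets 41.8% were lower. Itgb2, the leukocyte chain, differed by 0.23 (adjusted p = 0.509) and Itgb7, its lymphocyte counterpart, by 0.17 (adjusted p = 0.442). Of 6 leukocyte marker genes 4 had a higher and 2 a lower brightest probe-set in the mutants (median difference 0.36), where 39.4% of all genes were lower. Of the 6, 1 passed the test as higher (0 without Igf1-/- replicate 3), where 0.242% of all genes had a probe-set called higher. The mean level of the 6 was 9.08 to 9.36 in Igf1-/- and 8.83 to 9.06 in Igf1+/+ lungs. The part of these cells in the values of Itgb2, Itgb7 and the other leukocyte chains was not tested.

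Matrix ligands of the integrins were measured at 32 probe-sets of 17 genes, out of 20 listed. None passed the test, while 11 were lower and 1 higher at an unadjusted p under 0.05. Of all probe-sets 6.28% were lower and 6.27% higher at that level. The median difference was -0.13, with 25 of 32 lower, against a median of 0.03 and 41.8% lower over all probe-sets. Fn1, the fibronectin gene, read 11.92, 11.97 and 11.65 in Igf1-/- and 12.69, 12.19 and 12.59 in Igf1+/+ lungs at its brightest probe-set, with no overlap. The difference was -0.65 (SE 0.14; limma, adjusted p = 0.124), and at its second probe-set -0.48 (adjusted p = 0.159). Igf1-/- replicate 3 was the lowest array at both, and without it the differences were -0.55 and -0.35. Col4a1, a chain of basement membrane collagen, differed by -0.12 and -0.01 at its 2 probe-sets.

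Other ligands are named after their values were seen. Thbs1, the thrombospondin gene, was at -0.58 and -0.60 (limma, adjusted p = 0.196 and 0.186), without overlap between genotypes. Fn1 and Thbs1 belong to the genes that the study drew from these arrays, so their direction is not independent evidence. For Fn1 the study also reported a lower level by quantitative RT-PCR in other lung samples. Npnt, the gene of nephronectin, the ligand of the Itga8 and Itgb1 receptor, had 5 probe-sets. At the brightest it read 10.81, 10.70 and 10.84 in Igf1-/- and 10.96, 10.98 and 11.17 in Igf1+/+ lungs. Its differences ran from -0.39 to -0.06, and 4 of the 5 probe-sets did not overlap between genotypes (limma, adjusted p 0.206 to 0.881). Tnc, the gene of tenascin C, was the ligand with the opposite sign and no overlap, at 0.29 (limma, adjusted p = 0.243). Of all probe-sets 7.26% were lower in the mutants without overlap and 10.8% higher without overlap.

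The laminins are ligands of Itga3 and Itga6. Of 8 laminin chain genes on the array none passed the test. At their brightest probe-sets they lay between -0.22 (Lamb2) and 0.04 (Lama4), with Lama3 at -0.21. A dimmer Lama4 probe-set read -0.47 with no overlap (limma, adjusted p = 0.248), so the probe-sets of that gene disagreed.

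Itgb6 with Itgav binds latent TGF-beta, and the genes of this system were read for that reason. Of 12 listed genes 10 were on the array with 13 probe-sets, and 0 passed the test at either level. Of these probe-sets 11 were at a higher mean in the mutants, with a median of 0.07. Over all probe-sets 41.8% were lower, with a median of 0.03. Ltbp3 and Ltbp4, which encode proteins that hold latent TGF-beta in the matrix, differed by 0.03 and 0.24 at their brightest probe-sets (adjusted p = 0.879 and 0.465). Tgfb1 differed by 0.18 and the feedback inhibitor Smad7 by -0.07 (adjusted p = 0.524 and 0.703; both named after their values were seen).

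Inside the cell, adaptor proteins link the beta chain tails to actin. Of 27 such genes 23 were on the array, with 48 probe-sets. The mean was lower in the mutants at 31 of these, where 41.8% of all probe-sets were lower. At an unadjusted p under 0.05, 6 were lower and 3 higher (6.28% and 6.27% of all probe-sets). After adjustment 0 were called lower and 1 higher, where 0.393% and 0.164% of all probe-sets were called. The called one was the dim probe-set 1425604_at of Crkl, an adaptor of integrin signalling. It read 4.19, 4.05 and 4.04 in Igf1-/- and 3.59, 3.70 and 3.66 in Igf1+/+ lungs, a rise of 0.44 (limma, adjusted p = 0.0736), while the brightest Crkl probe-set differed by 0.14 and the other 2 by 0.06 and -0.03. Crkl was also among the study's own genes, and without Igf1-/- replicate 3 the call at 1425604_at was lost (0.47, adjusted p = 0.216 in limma). Tns1, the tensin gene with the brightest probe-set of the list, differed by -0.12 (adjusted p = 0.617; -0.05 without Igf1-/- replicate 3), and Fermt2, a kindlin that helps to activate integrins, by -0.09 (adjusted p = 0.647).

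Genes of the adaptor list named after their values were seen are the 2 PINCH genes, whose proteins join integrin-linked kinase. Lims2 read 7.94, 8.11 and 7.55 in Igf1-/- and 8.95, 8.48 and 8.44 in Igf1+/+ lungs, a difference of -0.75 (SE 0.17; limma, adjusted p = 0.137). Lims1 differed by -0.32, -0.31 and -0.57 at its 3 probe-sets (adjusted p 0.242 to 0.309). The genotypes did not overlap at Lims2 and overlapped at 2 of the 3 probe-sets of Lims1, where 7.26% of all probe-sets were lower without overlap. Without Igf1-/- replicate 3 the difference of Lims2 was -0.59 and those of Lims1 were -0.24, -0.26 and -0.37. The kinase gene itself, Ilk, differed by -0.01 (adjusted p = 0.978).

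Membrane partners and hemidesmosome genes were read as well. All 10 listed genes were on the array with 23 probe-sets, 0 passed the test, and 1 was lower and 0 higher at an unadjusted p under 0.05. Of all probe-sets 6.28% were lower and 6.27% higher at that level. Bsg and Cd81, the 2 brightest, had adjusted p of 0.889 and 0.997 at their brightest probe-sets. Plec, Dst and Col17a1, which share the hemidesmosome with Itga6 and Itgb4 (named after their values were seen), had adjusted p of 0.854, 0.992 and 0.609 at theirs.

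**Figure D4:**
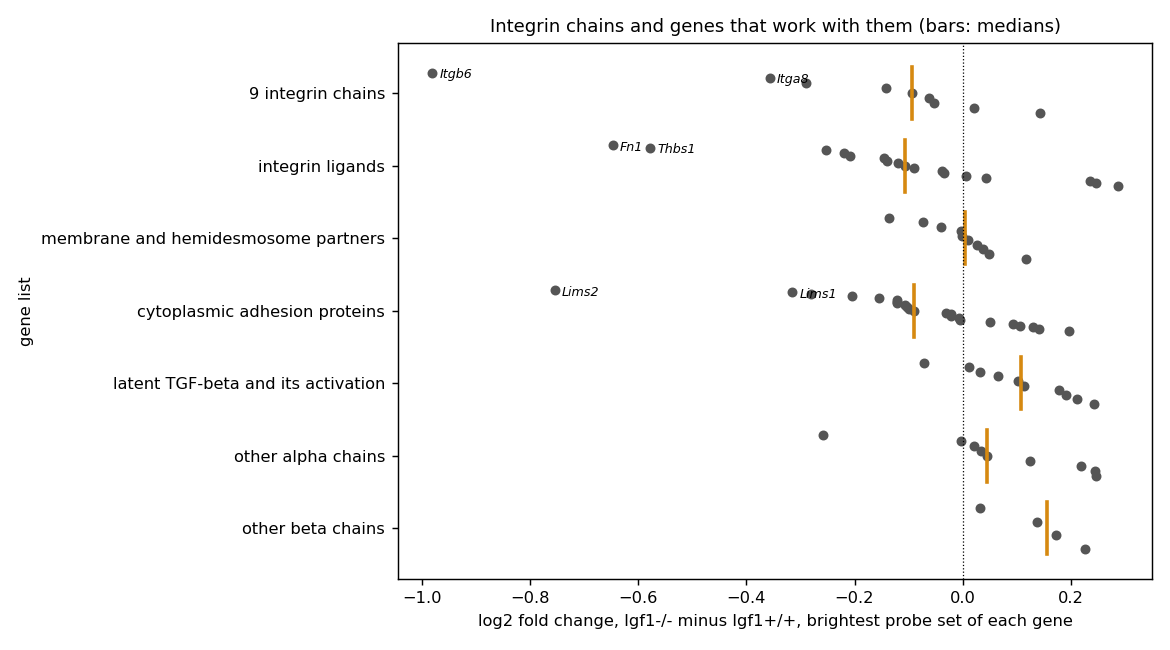
Log2 fold change, Igf1-/- minus Igf1+/+, of the brightest probe-set of each gene, for the 9 integrin chains and 6 lists of genes that work with them. Each point is a gene and each bar the median of its list, -0.09 for the 9 chains, against 0.03 for the brightest probe-sets of all genes. Itgb6, Fn1, Thbs1 and Lims2 lie furthest to the left, and among the points shown none is called other than Itgb6.

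Itgb6 is an epithelial gene, and markers of epithelial cells were therefore read beside it. The mean level of 6 alveolar type I markers was 11.09 to 11.36 in Igf1-/- and 11.61 to 11.69 in Igf1+/+ lungs, with all 6 lower at their brightest probe-set (median -0.30) and 1 called. That gene was Aqp5, the water channel of type I cells, which fell by 0.98 on the log2 scale (limma, adjusted p = 0.0173), from 9.90, 9.85 and 9.76 in controls to 9.01, 8.99 and 8.57 in mutants. Of 8 markers of lung epithelium as a whole 4 were lower and 4 higher, with none called, and their mean level was 10.09 to 10.13 in Igf1-/- and 10.02 to 10.20 in Igf1+/+ lungs. The 5 type II markers on the array were all higher (median 0.13, none called), at a mean level of 12.73 to 12.92 against 12.60 to 12.79. Beside these marker counts, 39.4% of all genes were lower at their brightest probe-set (median 0.03). A probe-set was called lower in 0.573% of all genes and called higher in 0.242%. The part of the type I cells in the value of Itgb6 was not tested.

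For the chains that other cells carry, mesenchyme markers had a mean level of 11.15 to 11.45 in Igf1-/- and 11.24 to 11.42 in Igf1+/+ lungs, smooth muscle markers 9.01 to 9.35 against 9.22 to 9.30, and endothelium markers 9.54 to 9.66 against 9.61 to 9.77. All of these ranges overlapped over the 6 arrays. For mesenchyme and smooth muscle the overlap rested on Igf1-/- replicate 3, at 11.45 and 9.35. Igf1-/- replicates 1 and 2 read 11.15 and 11.23 for mesenchyme, and 9.055 and 9.013 for smooth muscle. These values lay below every control array, for mesenchyme by very little. The defining markers of basal and squamous epithelium, tissues rich in Itgb4, had a mean level of 5.91 to 5.99 in Igf1-/- and 5.68 to 5.89 in Igf1+/+ lungs, with none called. At their brightest probe-sets Krt14 and Trp63 lay near the bottom of all means (percentiles 15.4 and 11.9). Krt5 lay at 40.7 and Krt15 at 81.3, so the mean level does not show that all these markers were detected. Erythroid markers had a mean level of 6.96 to 7.15 against 7.77 to 7.98, and 2 of their 3 genes on the array were called lower, Slc4a1 and Alas2. Of all genes 0.573% had a probe-set called lower. Without Igf1-/- replicate 3 the call of Alas2, an enzyme of heme synthesis, was lost (limma, adjusted p = 0.255) and that of Slc4a1 remained. The part of these cells in the integrin values was not tested.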

How the data were processed

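The series measured 6 E18.5 mouse lung samples, 3 Igf1-/- and 3 Igf1+/+, on Affymetrix mouse genome arrays. The deposited values are log2 signals that the authors made with RMA in R and Bioconductor, over these arrays together with 6 cochlea arrays that are not used here. The versions are not given in the sources used here. The labels speak of pooled lungs and the study's methods of separate samples, so p-values measure only the spread between these samples, and no batch is given. The number of arrays limits the precision.

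Here 64 control probe-sets were left out, and the other 22626 were fitted with lmFit and eBayes of limma 3.58.1 in R 4.3.3, with no covariate and Benjamini-Hochberg adjustment over all. A call was an adjusted p under 0.10, and 0.20, the wider level of the study, was an alternative. SAM, the study's test, was not run because its false discovery rate rests on regrouped arrays. Array annotation gave 20380 probe-sets 1 symbol, 691 several and 1555 none, and genes were named only from the first kind. Levels of different probe-sets served to rank them by brightness and to average markers. They were subtracted only for the differences between chains, where only the shift between genotypes was read. Of the 24 integrin probe-sets 16, from 8 genes, had a mean over the median of all. The integrin genes and the gene lists were chosen with earlier results of these data known. The rule for names took all probe-sets of the 9 chains, in each list the genes that passed and, where under 2 did, the 2 brightest, and the 5 genes closest to Itgb6 by Pearson's r. Differences between chains were tested by exact permutation over arrays. The fit was tested on simulated data. The alternatives were a replicate block, other normalizations, no dim probe-sets, other variance models, array weights, gene means, other thresholds and each array left out. Leaving Igf1-/- replicate 3 out of the lists was added after its heart gene signal was seen. Promoter sequences were from RefSeq (GRCm38.p6), and the set of promoters used here held 7 of the 9 chains, without Itgb4 and Itga6.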

Additional observations from a re-analysis of the deposited data

How the results depend on the processing

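The count of integrin genes called lower was 1 and became 0 without moderation of the variances (Itgb6 1422983_at, adjusted p = 0.411) and 0 at an adjusted p under 0.05. With an array left out it ranged from 0 to 1. It stayed at 1 under quantile normalization, median centring, no dim probe-sets, trended and robust variances, array weights, gene means and the 0.20 threshold, and 0 genes were called higher under any of these alternatives. The adjusted p of 1422983_at ranged from 0.0235 to 0.411. The dimmer Itgb6 probe-set passed with trended variances (adjusted p = 0.0923), array weights (0.0878) and without Igf1-/- replicate 1 (0.0707).

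Replicate numbers did not pair the samples (correlations of same-numbered deviations -0.0393, -0.228 and -0.137). With the replicate block 1 integrin gene was called lower (adjusted p = 0.0235) and 102 probe-sets in all, against 89 without the block.

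Differences near 0 changed sign. Itgav 1432296_a_at was -0.0517 under quantile normalization and -0.0259 with array weights, and Itgb5 1417534_at was 0.0106 with array weights. With an array left out, Itgb1 1452545_a_at ranged from -0.156 to 0.103, Itgb4 1427387_a_at from -0.0451 to 0.0792, Itgb5 1417533_a_at from -0.128 to 0.0185, Itgb5 1417534_at from -0.118 to 0.0510, and Itgav 1432296_a_at from -0.0771 to 0.0503. The cause was not tested.

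The shifts of Itgb6 against the 4 other chains stayed negative, between -0.64 and -1.15, with an array left out. Over the whole table, the calls rose to 481 lower and 229 higher without Igf1+/+ replicate 3, and fell to 31 lower and 14 higher without Igf1-/- replicate 3. The 8 integrin probe-sets under the median signal limit what can be read for Itgb1, Itgb4, Itgav and Itga5.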
